A study of Mus musculus with 12 samples.

Results

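Mitotic genes were followed in sorted mouse monocytes. The set held 33 genes, chosen by gene symbol and not by a threshold on their values, out of 55487 genes in the table of counts. All 33 were among the 14618 genes with enough counts to be tested. They were placed in 7 roles: 8 mitotic kinases, 4 cyclins B and cofactors of the anaphase-promoting complex (APC/C), 4 kinesins, 6 centromere, kinetochore and chromosomal passenger genes, 3 spindle assembly genes, 4 cytokinesis genes and 4 genes of the mitotic chromosome.

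The study measured RNA from monocytes labelled Ly6C+, with 50k cells taken per library, in 4 groups of 3 libraries. BM libraries came from bone marrow with the genotype label WT and no age. KO libraries came from fetal liver aged E13.5 (embryonic day) with the genotype label KO. Mixed libraries came from fetal liver aged E15.5 with the genotype label WT, and WT libraries from fetal liver labelled WT, aged E13.5 for WT 1 and E15.5 for WT 2 and WT 3. The title of the series is about cMaf and Zeb2, while its design text speaks of macrophages of several organs from Z165KO mice, cells other than those in the sample labels. Not given in the sources used here are the KO allele, the meaning of Mixed, the strain and the sex. Nothing states that libraries of 1 group are from different animals, and p-values then reflect only the spread among these samples, which may be technical. Tissue and, as far as labelled, age differ between BM and the fetal groups and cannot be told apart. KO and Mixed differ in both genotype label and embryonic day.

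Mitosis is driven by Cdk1 bound to B-type cyclins. Aurora and Polo kinases then build the spindle, kinesins slide and depolymerise microtubules, the kinetochore ties chromosomes to the spindle, and the checkpoint kinases Bub1 and Ttk hold back the APC/C until every chromosome is attached. The APC/C with Cdc20 destroys cyclin B, and the centralspindlin complex of Kif23 and Racgap1 then directs the cleavage furrow. Most of these genes are transcribed in G2 and M phase through promoter elements called the CHR and the CCAAT box, bound by the DREAM and MuvB complexes and by NF-Y. Fetal liver and bone marrow hold dividing monocyte precursors, while circulating monocytes rarely divide. In bulk RNA a smaller share of dividing cells and less RNA per dividing cell cannot be told apart.

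Zeb2, the gene of the series title, checked the labels. It stood at 20.1 to 23.8 CPM (counts per 1e+06 counts, on library sizes scaled by the TMM method) in KO, against 311 to 338 in BM, 141 to 165 in WT and 159 to 179 in Mixed, so the KO libraries were low. Total counts per library ran from 17384956 to 24473502. BM 1 had a count for 24422 genes against 19649 to 21046 in the other 11 libraries, and the contrasts of the members with BM were also computed without it. Monocyte markers were present in every group, 10 of 10 above 1 CPM, with a summed level of 35076 to 35730 CPM in BM against 10877 to 12360 in WT, 7718 to 8744 in KO and 14377 to 14482 in Mixed. Lyz2 and F13a1 together made up most of each sum, and not every marker followed it. Ly6c2 was higher in KO, at 1372 to 1684 CPM, than in WT, at 490 to 549. Fcgr1 was lowest in BM, at 37.5 to 46.0 CPM against 132 to 140 in WT. Each member had at least 653 counts in every library.

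The promoters show what the members share in sequence. RefSeq windows on GRCm38.p6, from 250 bases before to 50 bases after the transcript start, were matched for 29 of the 33 members, and none was matched for Aurkb, Incenp, Kif20a and Tpx2. Each window was searched on both strands for the CHR (TTTGAA), its variants TTTAAA and TTCGAA, and the CCAAT box (CCAAT). The CHR was found in 22 of 29 member windows (75.9%) and in 4893 of 27025 windows of all genes (18.1%). The CCAAT box was found in 24 of 29 (82.8%) against 37.9% of all windows, and 16 members (55.2%) held 2 or more of them against 12.2%. Both motifs stood together in 20 of 29 member windows (69%) against 7.12%. A CHR within 50 bases of the start occurred in 20 members (69%) and in 4.92% of all windows. With the variants counted, 26 members (89.7%) and 29% of all windows held a CHR-type match. A match is a string of letters in a window and is not evidence of binding.

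**Figure D1:**
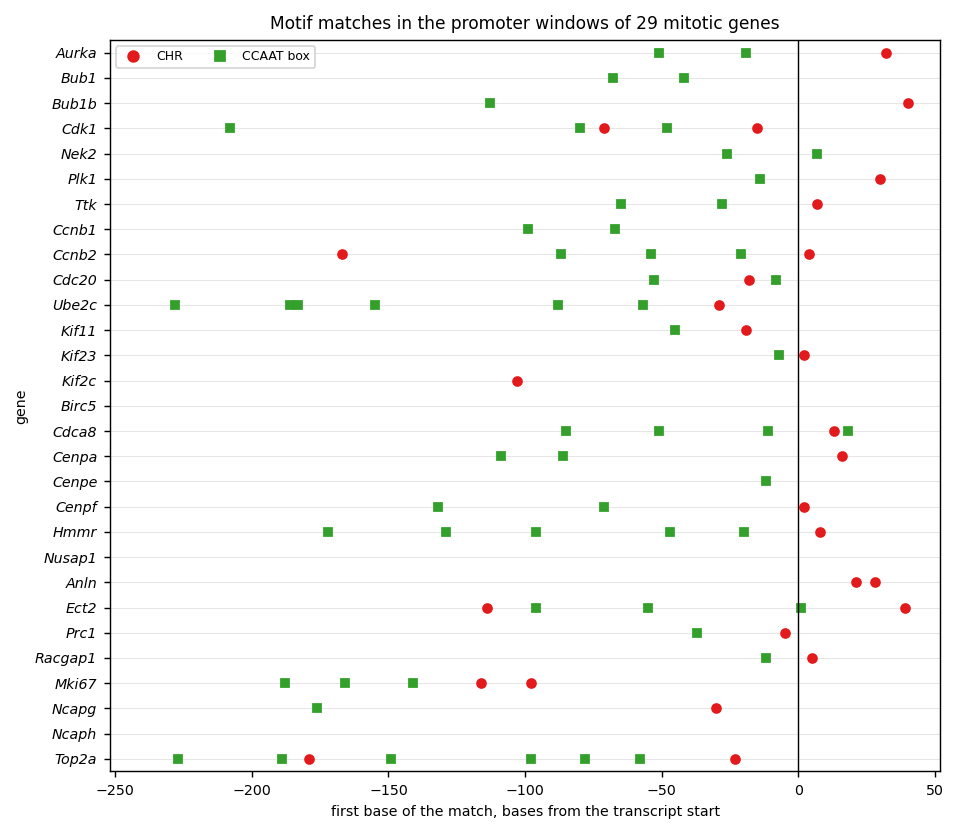
Positions of CHR (red circles) and CCAAT box (green squares) matches in the promoter windows of 29 mitotic genes, as the first base of the match in bases from the transcript start (x axis), with 1 gene per row. CHR matches gather around the start in 20 of the 29 windows, mostly downstream of the CCAAT boxes, and Birc5, Nusap1 and Ncaph show neither motif.

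Of the 22 members with a CHR, 12 held it only across or after the start and 10 at least once in the bases before it, and 6 members held it more than once. In Cdca8 a CHR and a CCAAT box shared 1 base. The 250 bases before the start are shown for the first member of each role that has a CHR there, in kinases, cyclins, kinesins and cytokinesis genes, because these are the promoters in which the 2 elements can be read side by side. None of the centromere genes with a window had a CHR before its start, and Incenp had no window. Ccnb1 was added after its values were seen, since it had the smallest adjusted p in bone marrow against WT and holds the variant TTTAAA in place of TTTGAA. Sequences run 5′ to 3′ on the strand of the gene, end at the base before the start, and have in capitals the CHR or its variant and the CCAAT box on either strand (TTCAAA and ATTGG are the reverse strand forms).
Cdk1 (chr10:69352913-69353162, minus strand): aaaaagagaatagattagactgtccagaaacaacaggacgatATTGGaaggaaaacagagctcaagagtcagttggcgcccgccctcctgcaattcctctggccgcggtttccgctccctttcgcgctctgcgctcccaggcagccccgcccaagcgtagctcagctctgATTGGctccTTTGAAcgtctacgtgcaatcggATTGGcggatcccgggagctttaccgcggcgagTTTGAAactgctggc
Ccnb2 (chr9:70421555-70421804, minus strand): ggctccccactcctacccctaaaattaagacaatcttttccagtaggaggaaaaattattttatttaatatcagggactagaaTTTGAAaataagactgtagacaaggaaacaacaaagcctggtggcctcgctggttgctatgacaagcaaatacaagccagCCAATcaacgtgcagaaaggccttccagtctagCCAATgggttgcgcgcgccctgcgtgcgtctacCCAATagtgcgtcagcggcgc
Kif11 (chr19:37376132-37376381, plus strand): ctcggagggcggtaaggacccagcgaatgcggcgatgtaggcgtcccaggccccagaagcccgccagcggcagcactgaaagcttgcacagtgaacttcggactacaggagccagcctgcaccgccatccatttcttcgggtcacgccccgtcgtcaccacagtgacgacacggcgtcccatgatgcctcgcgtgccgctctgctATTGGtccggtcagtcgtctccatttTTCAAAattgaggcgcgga
Ect2 (chr3:27153879-27154128, minus strand): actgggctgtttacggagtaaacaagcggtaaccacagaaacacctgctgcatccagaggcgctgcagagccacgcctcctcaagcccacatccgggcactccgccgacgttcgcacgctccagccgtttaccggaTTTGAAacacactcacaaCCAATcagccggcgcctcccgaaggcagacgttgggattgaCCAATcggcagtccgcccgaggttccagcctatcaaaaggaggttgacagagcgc
Ccnb1 (chr13:100786487-100786736, minus strand): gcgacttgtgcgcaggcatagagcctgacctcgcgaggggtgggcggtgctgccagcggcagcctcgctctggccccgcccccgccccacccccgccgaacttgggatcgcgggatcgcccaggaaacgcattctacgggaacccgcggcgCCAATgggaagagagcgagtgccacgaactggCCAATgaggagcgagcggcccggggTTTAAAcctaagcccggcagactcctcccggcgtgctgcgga

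In these letters Cdk1 holds CCAAT boxes at -208, -80 and -48 and CHR matches at -71 and -15, counted to the first base of the match. Kif11 has a single pair, a CCAAT box at -45 and a CHR at -19. Ccnb1 has CCAAT boxes at -99 and -67 and TTTAAA at -42. The median log2 fold change of BM against WT was -0.22 over the 22 members with a CHR, 13 of them lower and 3 higher, and -0.48 over the 7 without (Birc5, Bub1, Ccnb1, Cenpe, Ncaph, Nek2 and Nusap1), 4 of them lower and 2 higher. In KO against WT the medians were 0.090 and 0.12. Of the 7 without TTTGAA, Birc5, Bub1, Ccnb1 and Cenpe hold a CHR variant, and no test of motif against change was made.

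Levels per transcript length were read from the authors' deposited TPM (transcripts per 1e+06 transcripts). In WT the most abundant members were Birc5 at 398 ± 13.8 TPM (mean ± SD, n = 3), Ube2c at 382 ± 24.9, Cdk1 at 362 ± 4.47 and Ccnb1 at 314 ± 8.19. Birc5 and Ube2c did not differ beyond their spread. The least abundant were Nek2 at 17.2 ± 1.78, Cenpf at 18.2 ± 3.42, Ttk at 21.5 ± 1.70 and Cenpe at 22.1 ± 2.35. Birc5, which encodes the passenger protein survivin, was also the most abundant member in BM at 298 ± 8.69 TPM, with Top2a at 279 ± 8.76 beside it.

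Of the comparisons with WT, bone marrow called the most members. In edgeR's quasi-likelihood test with Benjamini-Hochberg adjustment over all genes tested, 19 of the 33 members were lower in BM, where 31.9% of all genes tested were lower, and 5 were higher, where 32.1% of all genes were. The share of members lower was 57.6%. The median log2 fold change of the members was -0.19 (-0.29 without BM 2), beside 0.0031 over all genes. In the deposited TPM the median log2 ratio of the members was -0.11. By mean TPM 13 members were higher and 20 lower in BM, against 9 and 24 by the sign of the change from counts. All 24 called members had the same sign in TPM. The lower members included Aurka, Bub1, Ccnb1, Ube2c, Cdk1 and Ncapg, which were 1.65-fold to 1.91-fold lower. The higher members were Racgap1 (1.75-fold), Kif23, Ccnb2, Nusap1 and Ncaph. Not called were Aurkb, Bub1b, Nek2, Kif11, Cenpa, Incenp, Anln, Prc1 and the proliferation marker Mki67.

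KO against WT gave small changes in both directions. 6 members were higher in KO (18.2% of the set, with 18.2% of all genes tested higher): Kif23, Kif20a, Nusap1, Plk1, Ccnb1 and Ncaph. Bub1 and Ttk, both checkpoint kinases, were lower, where 19.9% of all genes were lower. Both counts were at or below the shares over all genes. The changes spanned 1.12-fold to 1.41-fold among the higher members and 1.18-fold to 1.19-fold among the lower ones. The median log2 fold change was 0.096, with 26 members above 0, beside -0.029 over all genes. On library totals with no scaling factor, which shifts the median of all genes by -0.10 in this comparison, the split was 3 higher and 5 lower, with Anln, Incenp and Racgap1 then called lower and Plk1, Ccnb1 and Ncaph no longer called, and the median was -0.0065. In the deposited TPM 25 of the 33 members had a lower mean in KO than in WT. The direction of the set as a whole in KO thus changed with the scaling. The 8 called members had the same sign in TPM, but some changes were near 0 there. The log2 ratio of mean TPM was 0.017 for Ncaph, 0.056 for Ccnb1, 0.064 for Plk1, 0.12 for Kif20a, 0.13 for Nusap1 and 0.47 for Kif23. For Bub1 and Ttk it was -0.35. The count of 8 became 5 without KO 3 and 15 with a minimum count of 50.

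Mixed against WT gave 3 members higher, Aurkb, Ccnb2 and Racgap1, by 1.17-fold to 1.20-fold, and 0 lower, where 4.21% of all genes tested were higher and 3.87% lower. The median log2 fold change was 0.036, beside -0.0064 over all genes. At an unadjusted p under 0.05 4 members were higher and 0 lower, and DESeq2 and limma-voom each called 3 higher and 0 lower. Without WT 1 or without Mixed 1 the count was 0, and it was 1 without BM 1, KO 2 or Mixed 3 and on library totals.

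**Figure D2:**
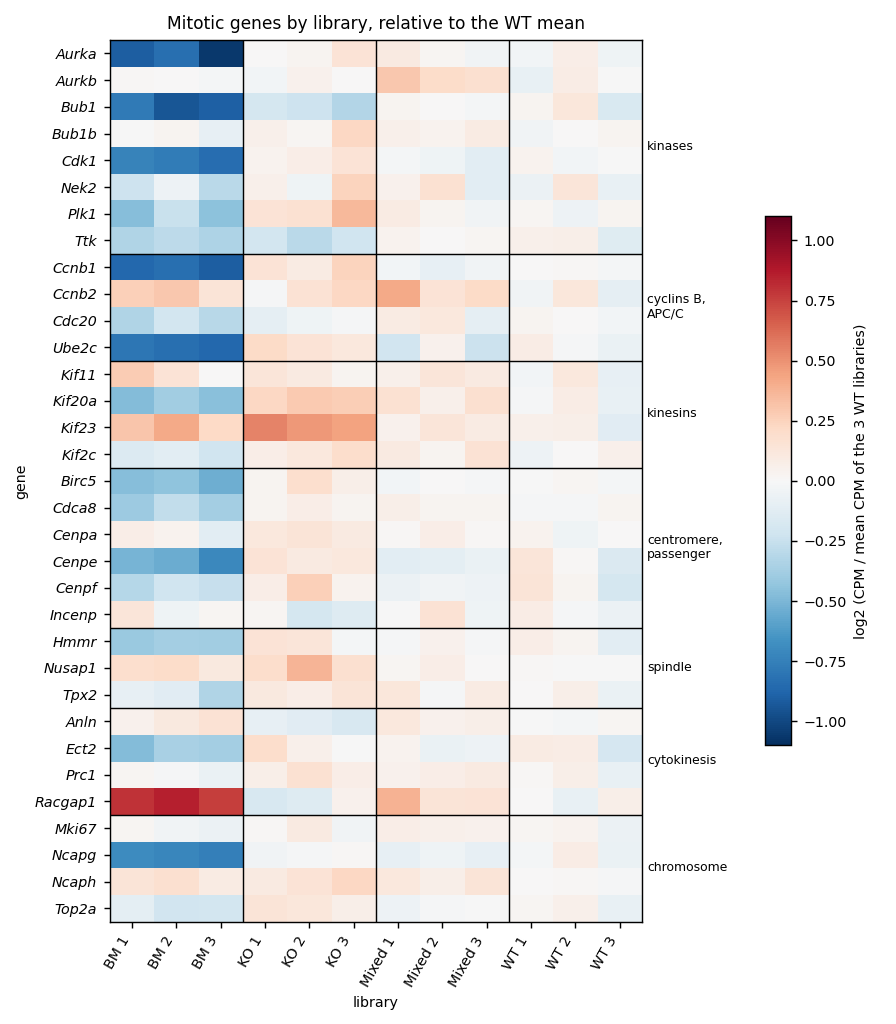
Level of each of the 33 mitotic genes (rows, grouped by role) in each library (columns) as log2 of CPM over the mean of the 3 WT libraries, from blue (lower) to red (higher). The 3 BM columns are blue for most kinases, Ccnb1, Ube2c and Ncapg and red for Racgap1, while the KO columns stand out at Kif23.

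**Figure D3:**
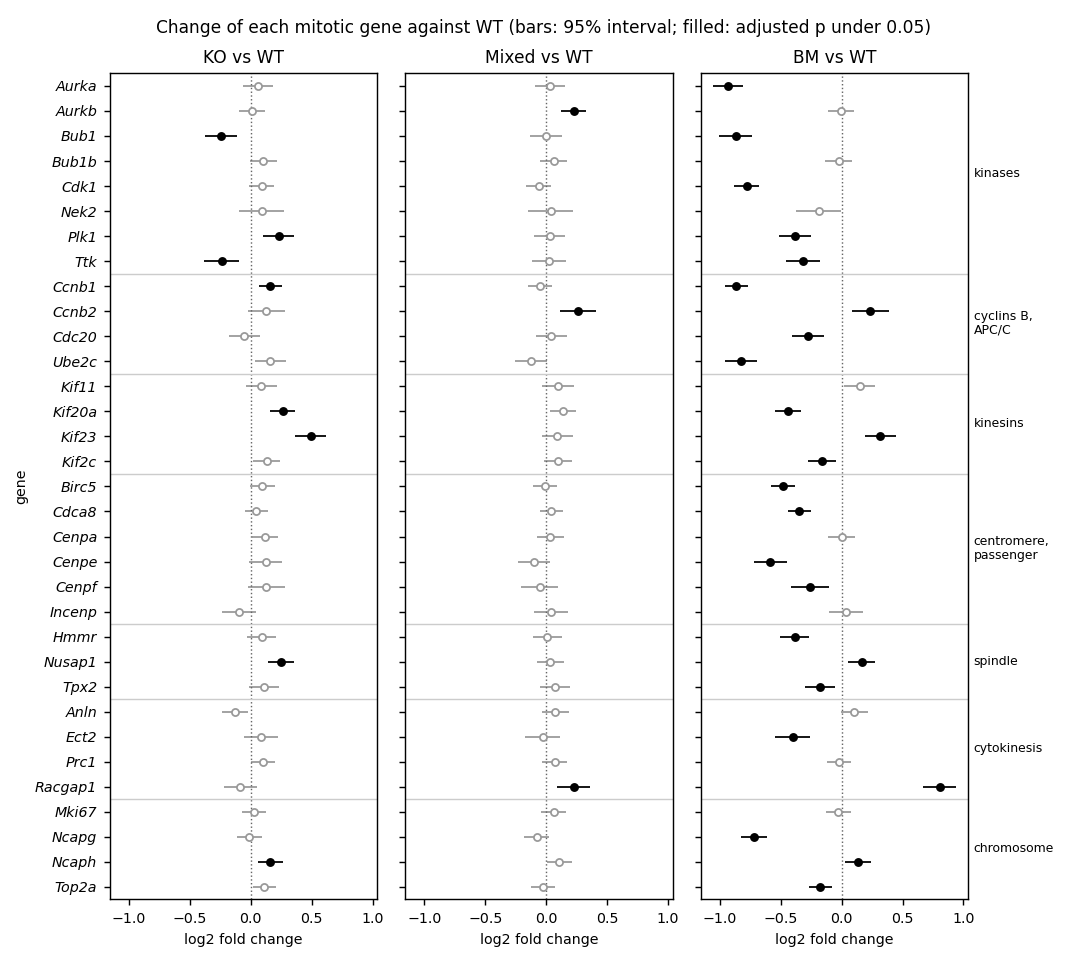
Log2 fold change of each mitotic gene (rows) in KO, Mixed and BM against WT (panels), with bars for the 95% interval and filled points for an adjusted p under 0.05. BM has 24 filled points, KO has 8 and Mixed has 3.

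Among the 8 mitotic kinases, 5 were lower in BM than in WT and 3 were not called. Aurka (chr2:172356190-172370535, minus strand), the Aurora kinase of the spindle poles, stood at 116, 123 and 105 CPM in BM, 219.5, 223 and 243 in KO, 234, 222 and 213 in Mixed and 214, 230.2 and 212 in WT. All BM libraries lay below all fetal ones, at close to the same level in the 3 fetal groups (1.91-fold lower in BM, log2 fold change -0.93, SE 0.064, adjusted p = 2.97e-11). Cdk1 (chr10:69335146-69352938, minus strand), the kinase that starts mitosis, was measured at 136, 133 and 127 CPM in BM, 233, 239 and 251 in KO, 223, 219 and 208 in Mixed and 232, 221 and 225 in WT. BM did not overlap the other groups here either, and the fall against WT was 1.72-fold (log2 fold change -0.78, SE 0.054, adjusted p = 2.74e-11). In Bub1 (chr2:127801122-127831865, minus strand), a kinase of the spindle checkpoint, the levels were 86.9, 78.0 and 80.2 CPM in BM, 131, 128 and 119.7 in KO, 152, 149 and 147 in Mixed and 152, 163 and 133 in WT. BM was lowest and KO lay between BM and the other groups, with no overlap: Bub1 was 1.83-fold lower in BM (log2 fold change -0.87, SE 0.069, adjusted p = 2.98e-10) and 1.19-fold lower in KO (log2 fold change -0.25, SE 0.068, adjusted p = 0.00615) than in WT. The call in KO was lost without WT 2.

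The levels of Ttk, the checkpoint kinase also called Mps1, were 36.9, 38.0 and 36.7 CPM in BM, 40.3, 37.7 and 39.9 in KO, 47.8, 46.7 and 47.0 in Mixed and 48.3, 48.5 and 42.4 in WT. All KO and all BM libraries were below all WT and Mixed libraries, and KO was 1.18-fold lower than WT (log2 fold change -0.24, SE 0.072, adjusted p = 0.0118), a call that was also lost without WT 2. Against WT the log2 fold change of Ttk in BM was -0.32. Plk1, the Polo kinase of centrosomes and cytokinesis, went the other way in KO, with 182, 212 and 185 CPM in BM, 280.1, 283 and 323 in KO, 268, 257 and 245 in Mixed and 256, 242 and 258 in WT. Every KO library lay above every WT library (log2 fold change 0.23, SE 0.065, adjusted p = 0.00798), and the call was lost without KO 3, the highest library. In BM Plk1 was lower than in WT, by a log2 fold change of -0.38.

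Aurkb, the Aurora kinase of the chromosomal passenger complex, had overlapping levels in BM, KO and WT and was highest in Mixed, with 240.0, 238 and 235 CPM in BM, 234, 247 and 239 in KO, 293, 274 and 268 in Mixed and 225, 252 and 238 in WT. The change in Mixed against WT was 1.17-fold (log2 fold change 0.22, SE 0.053, adjusted p = 0.0121), and the change in BM had a 95% interval of -0.11 to 0.10 on the log2 scale (intervals are not adjusted for the number of genes). The 2 Aurora kinases differed in bone marrow, and the ratio of Aurka to Aurkb CPM was 0.446 to 0.516 in BM against 0.893 to 0.950 in WT, 0.905 to 1.02 in KO and 0.795 to 0.810 in Mixed. Bub1b (BubR1, a checkpoint pseudokinase) and Nek2 (a centrosome kinase) were not called in any comparison with WT. Bub1b ran from 241 to 301 CPM over the 12 libraries and Nek2 from 34.1 to 49.7.

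The 2 B-type cyclins moved apart. Ccnb1 (chr13:100778650-100786570, minus strand), cyclin B1, stood at 299, 306 and 290.1 CPM in BM, 602, 578 and 643 in KO, 532, 511 and 529 in Mixed and 544, 549 and 536 in WT. The BM libraries were far below all others and the KO libraries above all others, with Ccnb1 1.82-fold lower in BM (log2 fold change -0.86, SE 0.049, adjusted p = 1.31e-12) and 1.12-fold higher in KO (log2 fold change 0.16, SE 0.049, adjusted p = 0.0115) than in WT. Without KO 3 the change in KO was not called. Ccnb2, cyclin B2, ranged over 257, 264 and 238 CPM in BM, 213, 240.2 and 251 in KO, 286, 238 and 249 in Mixed and 209.7, 235 and 200.2 in WT. Here BM lay above all WT libraries (1.18-fold higher, log2 fold change 0.24), and Mixed as well (1.20-fold, log2 fold change 0.26, SE 0.076, adjusted p = 0.0399). The call in BM was lost without BM 2 or WT 3, and the call in Mixed in 9 of 21 alternatives, among them library totals, the replicate block and embryonic day as a covariate. The ratio of Ccnb1 to Ccnb2 CPM was 1.16 to 1.22 in BM against 2.34 to 2.68 in WT, 2.41 to 2.83 in KO and 1.86 to 2.14 in Mixed, and in the deposited TPM 0.759 to 0.813 in BM against 1.26 to 1.90 in the fetal libraries.

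Ube2c (chr2:164769898-164778822, plus strand), the ubiquitin-conjugating enzyme that works with the APC/C, was measured at 143, 139 and 136 CPM in BM, 286, 275 and 269 in KO, 214, 256 and 210.4 in Mixed and 262, 245 and 235 in WT. BM libraries were below all fetal libraries, 1.77-fold lower than WT (log2 fold change -0.83, SE 0.067, adjusted p = 4.15e-10). KO was not called against WT (log2 fold change 0.16, 95% interval 0.031 to 0.29), although 10 of 21 alternative analyses did call it. Cdc20, the activator of the APC/C in mitosis, was lower in BM than in WT by a log2 fold change of -0.28 and lay between 67.7 and 92.4 CPM in all libraries. Ube2c overlaps Tnnc2 and Cdc20 overlaps Elovl1 on the other strand, and the library kit does not mark strand. Tnnc2 was near 0 here.

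Of the 4 kinesins, 2 carried most of the change in KO. Kif23 (chr9:61915905-61946774, minus strand), the motor of centralspindlin, stood at 146, 158 and 137 CPM in BM, 173, 165 and 161 in KO, 122, 129.9 and 126 in Mixed and 122, 123 and 108 in WT. All KO libraries were above all fetal libraries of the other groups, and BM lay between. Kif23 was 1.41-fold higher in KO than in WT (log2 fold change 0.49, SE 0.064, adjusted p = 2.05e-06), the largest change of a member among the fetal groups, and 1.25-fold higher in BM (log2 fold change 0.32). Kif20a, a kinesin of the central spindle, was found at 259, 277 and 261 CPM in BM, 422, 439.7 and 434 in KO, 405, 375 and 407 in Mixed and 358, 382 and 341 in WT. It was 1.20-fold higher in KO (log2 fold change 0.26, SE 0.053, adjusted p = 0.000482) and lower in BM (log2 fold change -0.44) than in WT, without overlap in both cases. Kif20a shares 2327 bases with Cdc23 on the other strand, which had a mean of 116 CPM, so reads of the 2 genes cannot be fully told apart.

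Kif11, the motor that pushes the spindle poles apart and known as Eg5, was not called in any of the 6 comparisons, at 219.7, 201 and 183 CPM in BM, 199, 195 and 185 in KO, 189, 199 and 194 in Mixed and 178, 197 and 170.1 in WT. The groups overlapped, and the 95% interval of its log2 fold change against WT was 0.018 to 0.28 for BM, -0.041 to 0.22 for KO and -0.033 to 0.23 for Mixed. Kif2c, a kinesin that depolymerises microtubules at the centromere, was slightly lower in BM than in WT (log2 fold change -0.16), a call lost without BM 3 or WT 3.

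Of the 6 centromere and passenger genes, 4 were lower in BM than in WT and 0 were called in KO or Mixed against WT by edgeR, DESeq2 or limma-voom (at an unadjusted p under 0.05, 1 was higher in KO). Birc5 (chr11:117849251-117855743, plus strand), survivin, was measured at 196, 199.8 and 187 CPM in BM, 277, 309 and 283 in KO, 266, 273 and 269 in Mixed and 271, 275 and 267 in WT. BM lay below all other libraries (1.40-fold lower than WT, log2 fold change -0.48, SE 0.052, adjusted p = 4.37e-08), with the fetal groups close together. Cenpe, a kinesin at the kinetochore, had log2 fold change -0.59 in BM, and Cdca8, the passenger subunit borealin, -0.35. Cenpf, a large protein of the outer kinetochore, showed 58.9, 62.7 and 61.4 CPM in BM, 77.0, 87.8 and 74.9 in KO, 69.8, 71.0 and 70.3 in Mixed and 80.6, 74.8 and 63.8 in WT. BM libraries were below the WT libraries (log2 fold change -0.26), but narrowly, and the call was lost without WT 1.

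Cenpa, the histone H3 variant that marks centromeres, and Incenp, the scaffold of the passenger complex, were not called in any comparison. Cenpa ran from 159.7 to 191 CPM over the 12 libraries, and its log2 fold change in BM against WT had a 95% interval of -0.11 to 0.11. For Incenp the interval was -0.10 to 0.18. Within the passenger complex, then, BM was lower for Birc5 and Cdca8, while Aurkb and Incenp were not called.

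The spindle assembly genes split in BM. Nusap1, which bundles spindle microtubules, was found at 267, 270.3 and 252 CPM in BM, 268, 303 and 266 in KO, 238, 247 and 236 in Mixed and 236, 234 and 234 in WT. KO and BM libraries lay above all WT libraries: Nusap1 was 1.19-fold higher in KO (log2 fold change 0.25, SE 0.055, adjusted p = 0.00103) and 1.12-fold higher in BM (log2 fold change 0.16). The call in BM was lost without BM 2 and on library totals. Hmmr, a microtubule-associated hyaluronan receptor, and Tpx2, the activator of Aurka, were lower in BM, with log2 fold changes of -0.39 and -0.18, and neither was called in KO or Mixed against WT. For Tpx2 the call was lost without BM 3 or WT 2.

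Cytokinesis genes were the one role whose summed level was higher in BM than in the fetal groups, at 815 to 846 CPM against 692 to 721 in WT, 712 to 728 in KO and 745 to 789 in Mixed. Racgap1 (chr15:99620496-99651656, minus strand), the GTPase-activating subunit of centralspindlin, made up the difference, with 326, 341 and 318 CPM in BM, 166, 170.1 and 194 in KO, 244, 207 and 209 in Mixed and 189, 178 and 197 in WT. BM was above every other library, 1.75-fold higher than WT (log2 fold change 0.80, SE 0.069, adjusted p = 1.36e-09), and Mixed was above WT by 1.17-fold (log2 fold change 0.23, SE 0.069, adjusted p = 0.0463). The Mixed call was lost in 11 of 21 alternatives. Anln, anillin of the contractile ring, was measured at 105, 110.2 and 114 CPM in BM, 96.2, 93.6 and 90.5 in KO, 111, 106 and 107 in Mixed and 102, 101 and 103 in WT. Every KO library was below every WT library, yet the change was not called (log2 fold change -0.13, 95% interval -0.24 to -0.021), and in BM the interval was -0.0033 to 0.21. Ect2, which is needed for the cleavage furrow, was lower in BM (log2 fold change -0.40), and Prc1, which bundles the central spindle, was not called against WT in any group (95% interval in BM -0.12 to 0.080).

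Kif23 and Racgap1 form 1 complex. Both were higher in BM than in WT and Mixed, while in KO against WT Kif23 was higher and Racgap1 was not called, and in KO against Mixed Kif23 was higher and Racgap1 lower. The ratio of Kif23 to Racgap1 CPM was 0.431 to 0.464 in BM against 0.551 to 0.693 in WT, 0.827 to 1.04 in KO and 0.499 to 0.628 in Mixed, so the KO libraries lay above all others and BM below all others.

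Among the genes of the mitotic chromosome, the 2 condensin I subunits changed in opposite directions in BM. Ncapg (chr5:45669919-45700546, plus strand) stood at 115, 113 and 110.1 CPM in BM, 181, 184 and 188 in KO, 174, 179.8 and 174 in Mixed and 183, 197 and 177 in WT. BM was below all fetal libraries (1.65-fold lower than WT, log2 fold change -0.72, SE 0.054, adjusted p = 1.1e-10). Ncaph, by contrast, was at 162, 167 and 157 CPM in BM, 158, 164 and 173 in KO, 159.7, 155 and 163 in Mixed and 148, 149 and 146 in WT. KO lay above WT (1.12-fold, log2 fold change 0.16, SE 0.053, adjusted p = 0.0197) and so did BM (log2 fold change 0.13), but the BM call was lost in 9 of 20 alternatives and the KO call without KO 3, WT 1 or WT 3.

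Mki67, the antigen used to score proliferation, did not follow the members that fell. Its levels were 314, 299.7 and 295 CPM in BM, 311, 331 and 299.8 in KO, 324, 321 and 319 in Mixed and 314, 316 and 295 in WT. BM overlapped KO and WT, the Mixed libraries lay just above those of BM and WT, it was not called in any of the 6 comparisons, and the 95% interval of its log2 fold change in BM against WT was -0.13 to 0.074. Top2a, topoisomerase II that untangles sister chromatids, was at 787, 732 and 739.7 CPM in BM, 939, 927 and 887 in KO, 817, 842 and 845 in Mixed and 864, 884 and 801 in WT. BM was lower than WT without overlap, by 1.13-fold (log2 fold change -0.17, 95% interval -0.27 to -0.078). The most used markers of dividing cells, Mki67 and Top2a, thus differed less between BM and WT than Ccnb1, Cdk1 and Aurka, whose 95% intervals in BM were -0.96 to -0.77, -0.89 to -0.68 and -1.06 to -0.81.

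**Figure D4:**
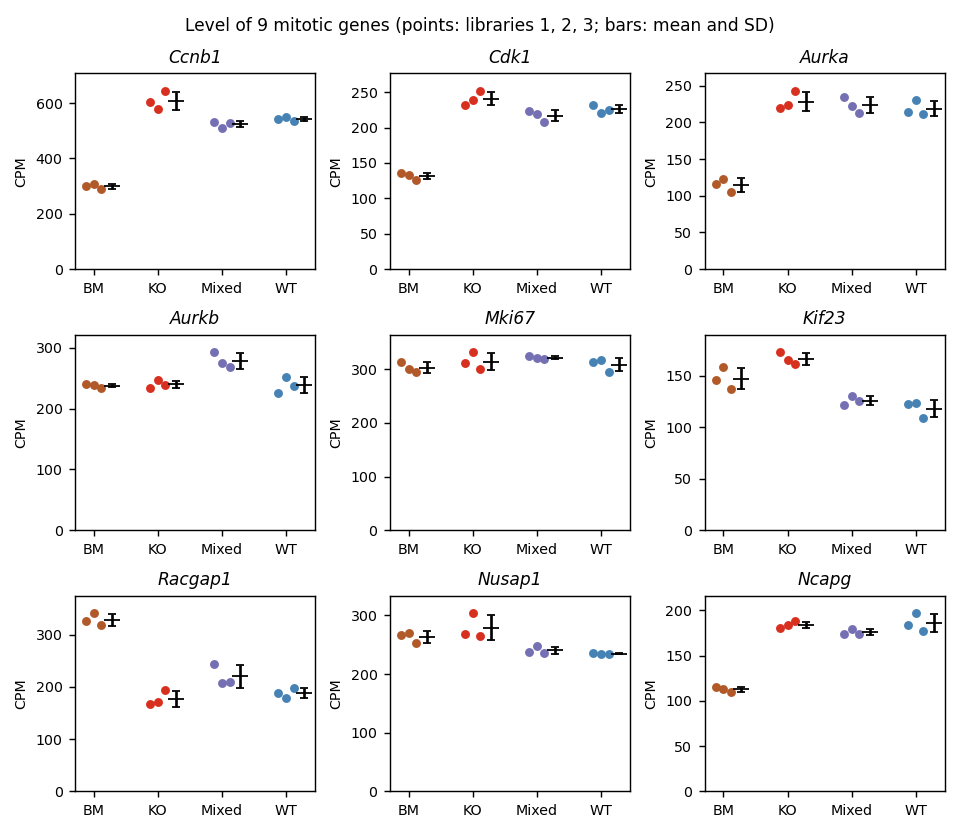
CPM of 9 mitotic genes in each library (points, libraries 1 to 3 from left to right within a group) with the mean and SD of each group (bars), each axis starting at 0. Ccnb1, Cdk1, Aurka and Ncapg are lowest in BM, Aurkb and Mki67 are similar in BM and WT, Racgap1 is highest in BM and Kif23 highest in KO.

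Since KO and WT differ in embryonic day in 2 of the 3 WT libraries, KO was also set against WT 1, the WT library of the same age, E13.5. WT 1 is also 1 of the libraries behind the calls. For Kif23 the log2 ratio of the KO mean was 0.44 to WT 1 and 0.52 to the mean of WT 2 and WT 3, for Kif20a 0.27 and 0.26, and for Bub1 -0.27 and -0.23. With 1 library of that day these ratios carry no test. A fit with embryonic day as a covariate over the fetal libraries rested on WT 1 alone for the day. Its change of KO against WT was in effect the KO mean against WT 1, so its calls are not a separate test.

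The other comparisons share libraries with those above and are given for their own values. In KO against Mixed 8 members were higher, where 18.2% of all genes tested were higher, and 5 were lower, where 18.5% were, with a median log2 fold change of 0.052 beside -0.022 over all genes. The smallest adjusted p values belonged to Kif23 (log2 fold change 0.40, SE 0.063, adjusted p = 2.98e-05), Racgap1 (log2 fold change -0.31, SE 0.069, adjusted p = 0.00105) and Ccnb1 (log2 fold change 0.21, SE 0.049, adjusted p = 0.00141). Next came Ube2c (log2 fold change 0.29, SE 0.066, adjusted p = 0.00147), Aurkb (log2 fold change -0.22, SE 0.053, adjusted p = 0.0028) and Nusap1 (log2 fold change 0.22, SE 0.055, adjusted p = 0.0037), then Anln (log2 fold change -0.20, SE 0.055, adjusted p = 0.00536) and Bub1 (log2 fold change -0.25, SE 0.068, adjusted p = 0.00601). Ttk was also lower, and Cenpe, Plk1, Cdk1 and Top2a were higher. KO and Mixed differ throughout in embryonic day. A fit with day as a covariate rested on WT 1 alone for the day, so it cannot tell day from genotype label here. On library totals the split was 2 higher and 9 lower. In the deposited TPM the median log2 ratio of the members was -0.1491. By mean TPM 6 members were higher and 27 lower in KO, against 23 and 10 by the sign of the change from counts. The direction of the set in KO against Mixed thus changed with the measure. Of the 13 called members, Cenpe and Top2a had the opposite sign in TPM.

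In BM against Mixed 21 members were lower, where 28.9% of all genes tested were lower, and 3 were higher, Racgap1, Kif23 and Nusap1, where 29.5% were. The call of Nusap1 was kept in 5 of 20 alternatives. The median log2 fold change was -0.25 (-0.32 without BM 2), beside 0.0070 over all genes. By adjusted p the first were Ccnb1 (log2 fold change -0.81, SE 0.049, adjusted p = 5.27e-12), Aurka (log2 fold change -0.96, SE 0.064, adjusted p = 2.43e-11), Cdk1 (log2 fold change -0.72, SE 0.054, adjusted p = 1.44e-10) and Bub1 (log2 fold change -0.87, SE 0.069, adjusted p = 3.82e-10). They were followed by Ncapg (log2 fold change -0.64, SE 0.054, adjusted p = 9.28e-10), Kif20a (log2 fold change -0.58, SE 0.054, adjusted p = 5.92e-09), Ube2c (log2 fold change -0.70, SE 0.067, adjusted p = 7.63e-09) and Birc5 (log2 fold change -0.47, SE 0.052, adjusted p = 7.66e-08). The remaining lower members had folds from 1.11 upward.

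In BM against KO 21 members were lower, where 32% of all genes tested were lower, and 2 were higher, Racgap1 and Anln, where 31.8% were. The median log2 fold change was -0.29, beside 0.0026 over all genes. In the deposited TPM the median log2 ratio of the members was -0.039. By mean TPM 15 members were higher and 18 lower in BM, against 5 and 28 by the sign of the change from counts. The size of the fall of the set thus changed with the measure. Ccnb1 was 2.04-fold lower in BM (log2 fold change -1.03, SE 0.050, adjusted p = 7.11e-14), the one member past 2-fold in any comparison. Then came Cdk1 (log2 fold change -0.87, SE 0.054, adjusted p = 4.22e-12), Aurka (log2 fold change -0.99, SE 0.064, adjusted p = 1e-11), Ube2c (log2 fold change -0.99, SE 0.067, adjusted p = 2.18e-11) and Ncapg (log2 fold change -0.71, SE 0.054, adjusted p = 1.45e-10). Kif20a (log2 fold change -0.70, SE 0.054, adjusted p = 1.86e-10), Racgap1 (log2 fold change 0.89, SE 0.069, adjusted p = 2.69e-10) and Birc5 (log2 fold change -0.58, SE 0.052, adjusted p = 2.56e-09) completed the 8 with the smallest p. Kif23, Cdc20 and Prc1 were called lower in BM from counts, but their mean TPM was higher in BM than in KO.

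Across the 3 comparisons of BM with a fetal group, 18 members were lower in BM each time: Aurka, Birc5, Bub1, Ccnb1, Cdc20, Cdca8, Cdk1, Cenpe, Cenpf, Ect2, Hmmr, Kif20a, Kif2c, Ncapg, Plk1, Top2a, Tpx2 and Ube2c. Over all genes tested 22.3% were lower each time. Racgap1 was the 1 member higher each time, as were 22% of all genes. The 3 comparisons share the BM libraries. Bub1b, Cenpa, Incenp, Kif11 and Mki67 were not called in any of the 6 comparisons. By role, the lower members in BM against WT were 5 of 8 kinases, 3 of 4 cyclins and APC/C cofactors, 2 of 4 kinesins, 4 of 6 centromere genes, 2 of 3 spindle genes, 1 of 4 cytokinesis genes and 2 of 4 chromosome genes. The 5 higher members came from 5 roles. Over all genes tested 31.9% were lower and 32.1% higher in BM against WT, and the share of cytokinesis genes lower, 25%, was below the first of these. Whether roles differ was not tested, as each holds few genes.

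Summed over the 33 members, mitotic RNA made up 5933 to 6268 CPM in BM against 6925 to 7319 in WT, 7608 to 7733 in KO and 7283 to 7426 in Mixed, so BM lay below all other libraries, and on this scaling KO lay above them. As a percent of the unscaled library total the members took 0.587 to 0.623 in BM against 0.704 to 0.755 in WT, 0.729 to 0.748 in KO and 0.745 to 0.769 in Mixed, where BM was again lowest but KO lay within the WT range. The summed level of 41 genes of DNA replication, the S-phase programme that precedes mitosis, was 5340 to 5571 CPM in BM against 7912 to 8049 in WT, 7638 to 7859 in KO and 8148 to 8354 in Mixed. The ratio of the sums, which does not depend on the scaling of a library, was 1.11 to 1.14 in BM against 0.863 to 0.912 in WT, 0.984 to 0.996 in KO and 0.875 to 0.900 in Mixed. BM and KO each lay above all Mixed and WT libraries, with no overlap between BM and KO.

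**Figure D5:**
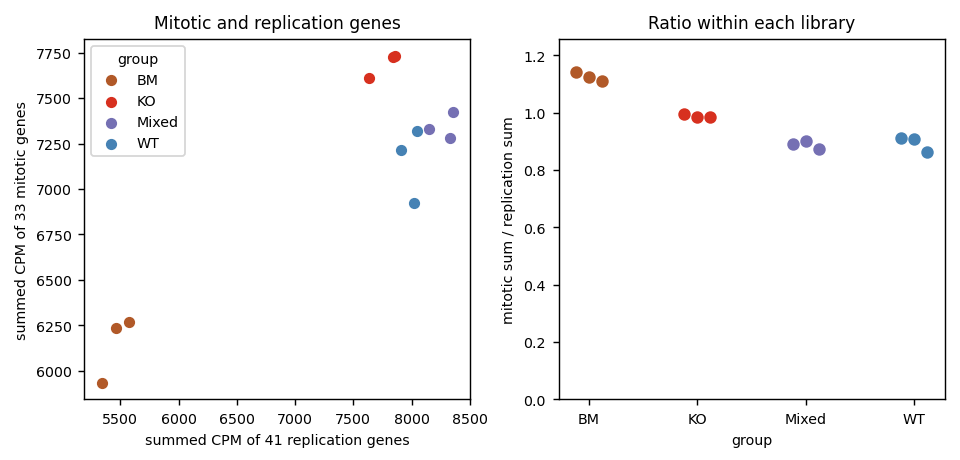
Left, summed CPM of the 33 mitotic genes against summed CPM of 41 replication genes, with 1 point per library and axes that do not start at 0. Right, the ratio of the sums in each library by group. BM libraries are low for both sums and have the highest ratio (1.11 to 1.14), and KO libraries (0.984 to 0.996) lie between BM and the Mixed and WT libraries.

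Of the 41 replication genes 37 were lower in BM than in WT and 0 higher (also 0 at an unadjusted p and by DESeq2 and limma-voom), with a median log2 fold change of -0.59, against -0.19 for the mitotic genes. Orc1, the first subunit of the origin recognition complex, was 3.31-fold lower (8.61 ± 0.459 CPM in BM and 28.5 ± 2.31 in WT, mean ± SD, n = 3), and Gins1, Rfc4 and Orc6 were 2.15-fold, 2.09-fold and 2.04-fold lower. In KO against WT 16 replication genes were lower and 1 higher, with Ung, a uracil glycosylase, 1.49-fold lower and Orc1, Mcm10 and Pole between 1.23-fold and 1.26-fold lower. In Mixed 1 was higher, the polymerase subunit Pold1 (1.17-fold), 2.44% of the list beside 4.21% of all genes. The shares of the list were 90.2% lower and 0% higher in BM, and 39.0% lower and 2.44% higher in KO, where 31.9% and 19.9% of all genes were lower.

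The partners of the members in the kinetochore and checkpoint were mostly lower in BM: 20 of 32 were lower than in WT and 0 higher (1 at an unadjusted p under 0.05, 0 by DESeq2 and limma-voom), led by Cenpw (2.40-fold), Cenph (2.23-fold), Cenpk (2.02-fold) and Zwint (1.86-fold), all parts of the inner or outer kinetochore. The share lower in BM was 62.5%, beside 31.9% of all genes. In KO 4 of the 32 were lower and 2 higher, 12.5% and 6.25% beside 19.9% and 18.2%, with Cenpw, Cenpq and Cenpu each about 1.26-fold lower and Mad2l1bp, a silencer of the checkpoint, 1.29-fold higher. In Mixed Cenph was lower (1.31-fold) and Nsl1 higher (1.19-fold), each 3.1% of the list, beside 3.87% of all genes lower and 4.21% higher. The 15 APC/C subunits and their E2 partner had 7 lower and 2 higher in BM, with Anapc15 1.65-fold, Anapc10 1.53-fold, Ube2s 1.42-fold and Cdc27 1.40-fold lower. In KO 4 were lower, Anapc10, Anapc1, Cdc26 and Cdc16 (1.15-fold to 1.39-fold), and 0 higher (also at an unadjusted p and by DESeq2 and limma-voom), and in Mixed Cdc26 was lower. The shares lower were 46.7% in BM, 26.7% in KO and 6.67% in Mixed, beside 31.9%, 19.9% and 3.87% of all genes.

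Other mitotic kinesins and spindle genes, 35 in all, had 17 lower and 3 higher in BM than in WT, 48.6% and 8.57% of the list beside 31.9% and 32.1% of all genes. The 35 include the condensin subunit Ncaph2, which is also in the condensin list below and is counted in both. Kifc1, a minus-end motor, was 2.60-fold lower, Kntc1 1.71-fold and Kif15 1.67-fold lower, and Psrc1 1.66-fold higher. In KO 9 were higher and 2 lower among those tested, 25.7% and 5.71% beside 18.2% and 19.9% of all genes, with Cit, the citron kinase of the midbody, 1.30-fold higher (152 ± 8.39 CPM in KO and 117 ± 6.61 in WT) and Dlgap5, a spindle protein, 1.28-fold higher, while Iqgap3 and Plk4, the centriole kinase, were 1.26-fold and 1.24-fold lower. Cit was also the 1 gene of this list higher in Mixed (1.18-fold), 2.86% of the list beside 4.21% of all genes. Of 21 condensin, cohesin and separase genes 4 were higher and 7 lower in BM, with Ncapd3 1.46-fold higher and Sgo2a, Sgo1 and Smc2 1.40-fold to 1.49-fold lower. These are 19.0% and 33.3% of the list, the second near the 31.9% of all genes. In KO 3 were higher, the condensin subunits Ncapd2 (1.24-fold) and Ncaph2 and the securin Pttg1 (1.21-fold), and 2 lower, among them Pds5b, or 14.3% and 9.52% of the list, both below the shares of all genes (18.2% and 19.9%).

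Regulators of mitotic entry and exit moved in both directions. Of 19, 9 were lower and 4 higher in BM than in WT, 47.4% and 21.1% beside 31.9% and 32.1% of all genes. Cdc25b, a phosphatase that activates Cdk1, was 1.84-fold higher in BM and 1.65-fold higher in KO (74.9 ± 3.40 CPM in BM, 66.9 ± 3.05 in KO, 46.4 ± 0.348 in Mixed and 40.6 ± 3.17 in WT). Its relative Cdc25a, which acts at the entry to S phase, was 2.39-fold lower in BM, as were Wee1, the kinase that inhibits Cdk1 (1.80-fold), and Cks2, a subunit of Cdk complexes (1.69-fold). In KO 6 were higher and 3 lower, 31.6% and 15.8% beside 18.2% and 19.9%: Cdc14a was 1.56-fold higher, and Pkmyt1, the second inhibitory kinase of Cdk1, and Ppp2r2a were 1.49-fold and 1.27-fold lower. In Mixed Ensa was higher and Cks2 lower, both by 1.15-fold. Each was 5.26% of the list, beside 4.21% of all genes higher and 3.87% lower.

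The transcription factors that act on mitotic and S-phase promoters formed a list of 24. In BM 11 were higher and 8 lower than in WT, 45.8% and 33.3% beside 32.1% and 31.9% of all genes. E2f2 was 3.41-fold higher (204 ± 7.92 CPM in BM and 59.7 ± 2.10 in WT) and Rbl2, the pocket protein p130 of the DREAM complex, 2.09-fold higher, while E2f3 and the E2F partner Tfdp1 were 3.08-fold and 2.00-fold lower. In KO 4 were higher and 5 lower, near the shares of all genes at 16.7% and 20.8%: E2f6, a repressor, was 3.52-fold lower at a low level (3.29 ± 0.569 CPM against 11.5 ± 1.64), Mybl2, a partner of MuvB, 1.38-fold and E2f3 1.32-fold lower, and E2f2 1.58-fold higher. In Mixed 4 were higher and 1 lower, 16.7% and 4.17% beside 4.21% and 3.87% of all genes. E2f2 (1.29-fold), Foxm1 (1.19-fold), the activator of G2 and M genes, and Nfyb (1.16-fold) were higher and E2f3 (1.45-fold) was lower.

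Markers of other cells moved with these groups. Stem and progenitor markers (10 of 10 in the table) summed to 67.7 to 72.7 CPM in BM against 601 to 646 in WT, 283 to 330 in KO and 589 to 616 in Mixed, and Hlf was at 0 in BM. Cd34 made up most of each fetal sum, at 519.87 to 560.31 CPM in WT and 165.25 to 179.98 in KO. Kit was also lower in BM and KO than in WT. Flt3 went the other way, at 15.4 to 17.7 CPM in BM and 60.7 to 70.3 in KO against 5.4964 to 7.51 in WT. Meis1 was higher in KO, at 25.6 to 33.9 CPM against 19.9 to 22.8 in WT. Neutrophil and granule markers (11 of 11) summed to 2037 to 2324 CPM in BM against 10063 to 12551 in WT, 13030 to 15805 in KO and 8942 to 9147 in Mixed, with none at 0. S100a8, S100a9 and Mpo made up most of the fetal sums, and some markers went against the sums. In BM Elane was at 638 to 709 CPM against 469 to 483 in WT, and Mmp8 at 289 to 312 against 141 to 190. In KO Mpo was at 1829 to 2199 CPM against 5043 to 5916 in WT, and Elane at 201 to 254. Erythroid markers (12 of 13 in the table) summed to at most 32.2 CPM in BM against 1042 to 1949 in WT, 678 to 1463 in KO and 860 to 1689 in Mixed. Conventional dendritic cell markers (8 of 8) were highest in KO, at 237 to 241 CPM against 162 to 174 in BM, 29.3 to 34.9 in Mixed and 24.8 to 29.6 in WT. The sum in KO was carried by Dpp4 (78.9 to 81.6 CPM), Flt3 (60.7 to 70.3), Batf3 (51.7 to 62.6) and Clec9a (18.3 to 23.2). Flt3 is in both this list and the stem and progenitor list and is counted in both. Cd209a was at 0 to 0.676 CPM in KO against 61.4 to 72.7 in BM and 6.93 to 11.6 in WT, and Clec10a at 0.0423 to 0.0526 in KO against 36.2 to 39.7 in BM. Their part in the differences of the mitotic genes was not tested.

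Other lists were low or differed as well. B cell markers (8 of 8) summed to 41.6 to 45.8 CPM in BM against 79.8 to 87.5 in WT, up to 144 in KO and 80.1 to 83.0 in Mixed, with Igll1 at 0 in KO and Pax5 and Ebf1 at 0 in WT. Endothelial and stromal markers (6 of 6) summed to 27.5 to 34.3 CPM in BM against 17.7 to 30.0 in WT, 75.0 to 80.7 in KO and 16.3 to 19.8 in Mixed, with Col3a1 at 0 in BM and Col1a1, Col3a1 and Dcn at 0 in Mixed. Most of this sum was Pecam1, a gene that myeloid cells also express, at 73.8 to 79.0 CPM in KO, 26.9 to 34.1 in BM, 16.1 to 27.5 in WT and up to 19.1 in Mixed, and Cdh5, Kdr, Col1a1, Col3a1 and Dcn were each under 1 CPM in every library. Hepatocyte markers (8 of 8) reached 93.1 CPM in KO and 73.8 in WT, but 8.14 in Mixed and 0.660 in BM, where Alb, Apoa1 and Serpina1a were at 0. Megakaryocyte markers (6 of 6) summed to at most 15.2 CPM, T and NK cell markers (6 of 6) to at most 2.21 and mast cell and basophil markers (5 of 5) to at most 33.2, in a BM library.

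Members varied together only in part. Over the 12 libraries the median Pearson r of log2 CPM was 0.43 across the 528 pairs of members, 0.51 in the 70 pairs of the same role and 0.42 in the 458 pairs of different roles. After the mean of each group was removed the median r was 0.21, 0.28 and 0.20. These values describe 12 libraries that share groups and a scaling, and carry no test.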

How the data were processed

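RNA-seq of 12 libraries was read from a pair of tables deposited by the authors, estimated counts per gene and TPM (transcripts per 1e+06 transcripts). The CPM table was not used. Per the submitters' processing notes, the build was mm10 and the tools were STAR, Salmon, featureCounts, Subread and DRAGEN, with their roles and order not given. Of the nonzero deposited estimated counts 28.5% were not whole (tolerance 1e-06), and all were rounded. Columns that begin with the letter m in the deposited tables were taken as the Mixed libraries by their initial and number. The labels' protocols name a NucleoSpin RNA XS kit, a SMARTer Ultra Low kit, which does not mark strand, and a NovaSeq X Plus, so a member that overlaps a gene on the other strand is uncertain where that gene is expressed (Cdc20, Kif20a, Nusap1, Prc1, Ncapg and Cdca8).

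Of 55774 entries 287 repeated a gene and were removed. edgeR's filterByExpr (minimum count 10) kept 14618 genes, and totals per library were 17384956 to 24473502. Scaling was by TMM and the common biological coefficient of variation was 0.0917. edgeR's quasi-likelihood test used 1 fit of the 12 libraries, with the group as the only term. The test is two-sided, with Benjamini-Hochberg adjustment over all genes tested. A member is called higher or lower where this adjusted p is under 0.05, SE is the log2 fold change over the root of F, and CPM uses TMM-scaled library sizes. The fit was tested on simulated data. The work used edgeR 4.0.16, DESeq2 1.42.0, limma 3.58.1 and the data.table package (1.17.8) in R 4.3.3. Gene positions are 1-based from the GENCODE annotation of GRCm38, and promoters are from RefSeq.

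The members, roles and 7 further gene lists were chosen with earlier results of these data known. All 33 members are named. For each comparison up to 8 called members of smallest p have full statistics, and from each list up to 4 called members of largest change are named. Values in all libraries are given for those among the 8 in comparisons with WT and for Mki67, Top2a, Cdk1, Ccnb1, Plk1, Aurkb, Kif11, Cenpf, Birc5 and Anln. Whether the same number in the titles of different groups pairs libraries is not known. The correlation of the deviations of such libraries from their group means was at most 0.069. With 3 libraries a group this cannot exclude pairing, and the main fit treated libraries as unpaired. Alternatives were other scalings, filters and tools, the 2 groups alone, a replicate block, embryonic day and leaving out each library.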

Additional observations from a re-analysis of the deposited data

How the results depend on the processing

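Over 20 alternatives for comparisons with BM and 21 for those among fetal liver groups, no called member changed direction. Called in every alternative were 18 of 24 members in BM against WT, 19 of 24 in BM against Mixed, 20 of 23 in BM against KO, and 3 of 8 in KO against WT (Kif23, Kif20a and Nusap1). None of the 3 in Mixed against WT or of the 13 in KO against Mixed was. The number of members called in KO against WT, 8, became 15 with a minimum count of 50 and 5 to 11 when a library was left out, 5 without KO 3. In Mixed against WT the count of 3 became 1 on library totals, 1 with the replicate block, 0 with embryonic day, and 0 to 4 when a library was left out. The count of 13 in KO against Mixed became 0 with embryonic day, a fit that rests on WT 1 alone for the day, and 10 to 14 without a library. The replicate block gave 9 members in KO against WT and 25 in BM against WT. Medians of the members on library totals were -0.0065 in KO against WT and -0.049 in KO against Mixed. When a library was left out, the median ran from -0.29 to -0.16 in BM against WT, from -0.32 to -0.22 in BM against Mixed and from -0.37 to -0.23 in BM against KO, lowest without BM 2 each time. Over all genes, 1180 were called in Mixed against WT, and 399 with embryonic day, 414 without Mixed 1, 665 without Mixed 3, 464 without WT 1 and 688 without WT 2, and in KO against Mixed 5365 became 1978 with embryonic day. The cause was not tested. In 5 calls (Cenpe and Top2a in KO against Mixed, Cdc20, Kif23 and Prc1 in BM against KO) the mean TPM had the opposite sign.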
